A study of Homo sapiens with 10 samples.

Results

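The effect of the progestin R5020 was examined as 1 pooled contrast over both T47D breast cancer lines that carry the A isoform of the progesterone receptor (PR-A). It was the mean of the R5020 minus vehicle change in PR-A K388R cells and the same change in WT PR-A cells, taken from 4 R5020 arrays and 4 vehicle arrays with cell line as a term. These are 8 of the 10 arrays of the series. The remaining arrays come from the PR-negative parent T47D-Y with vehicle alone. They entered only the fit over 10 arrays that tested whether the lines differed in their response and gave the calls of single lines. Of the 12547 probe sets with 1 gene symbol, 204 rose with R5020 and 126 fell, standing for 166 and 102 genes. The glucocorticoid-inducible kinase SGK1, the cortisol-inactivating enzyme HSD11B2 and the immunophilin FKBP5 rose most. On the brightest probe set of each gene the deacetylase gene HDAC9, the sulfate-donor enzyme PAPSS2 and the kinase PLK2 fell most.

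T47D is an established luminal breast cancer line. T47D-Y is a PR-negative clone of it, and each PR-A line was made from T47D-Y by stable transfection of an expression vector for either the WT receptor or the K388R mutant. The groups were PR-A K388R cells with 10 nM R5020, WT PR-A cells with 10 nM R5020, PR-A K388R cells with ethanol vehicle and WT PR-A cells with ethanol vehicle, each for 24 h and with 2 arrays. Each genotype is 1 stable line, so the mutation and the line cannot be told apart, and T47D-Y cells with R5020 were not analysed here, so effects through PR-A and through any other steroid receptor of T47D cells cannot be told apart. Whether the numbered replicates were separate cultures is not in the labels, and the p-values cover no more than the spread of these arrays, which may be technical. For culture medium and RNA kit the labels (DMEM with charcoal-stripped serum, PicoPure) and the methods (MEM with FBS, RNAeasy) differ.

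The progesterone receptor is a ligand-activated transcription factor that binds response elements shared with the glucocorticoid, androgen and mineralocorticoid receptors, and it both activates and represses genes. PR-A is the shorter of its isoforms. SUMOylation, the attachment of a small ubiquitin-like protein to a lysine of the receptor, restrains the receptor on some promoters, and the K388R mutant lacks that lysine. A pooled contrast asks which genes the hormone changes on average over both lines. It does not require a response in each, so a single line can carry most of a call.

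Values are log2 signals, so a change of 1 is 2-fold. Array medians lay between 4.59 and 4.69, and lower quartiles between 3.28 and 3.39. As a description across probe sets, arrays of 1 group correlated at r = 0.996 to 0.997 (Pearson), treatments within a line at 0.986 to 0.993 and the lines at 0.977 to 0.986. Of the variance over the 8 arrays, 53.6% lay between the lines, 23.6% was the pooled R5020 effect, 8.92% the difference between the responses and 13.1% the remaining spread between replicates. All 8 measured luminal epithelial markers were above the median level, with array means of 10.74 to 11.24 on R5020 arrays and 11.18 to 11.42 on vehicle arrays. Of 7 measured basal and myoepithelial markers 5 were above the median level, with array means of 6.63 to 6.77 on R5020 arrays and 6.48 to 6.62 on vehicle arrays. Leukocyte markers (7 measured, 4.15 to 4.31 on R5020 arrays and 4.14 to 4.27 on vehicle arrays) and endothelial markers (7 measured, 4.14 to 4.55 and 4.33 to 4.58) had 0 members called. In bulk RNA, a level per cell and the share of cells that express a gene cannot be told apart. Probe sets for PGR, the receptor gene itself, and for CDKN1C, CLDN8, ATAD2, SPINT3, ESRRG, ADAMTS8, KCNMA1 and STYK1 were not analysed here.

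Each call needed an adjusted p under 0.05 (limma, Benjamini-Hochberg) with a pooled change of 1.5-fold or more. On this rule 1.63% of probe sets rose and 1.00% fell. At least 2-fold changes numbered 97 among the raised probe sets and 40 among the lowered ones. At least 4-fold changes numbered 18 and 2. The largest rise was 24.5-fold and the largest fall 4.69-fold. Raised probe sets started from a median vehicle level of 6.97 and lowered ones from 8.23, against 5.08 over all probe sets. For 6 raised and 0 lowered probe sets the lower condition was under the lower quartile of every array, and for these the size of the change is uncertain. The counts rested partly on the WT PR-A arrays. Raised probe sets numbered 138 without R5020 replicate 1, 118 without R5020 replicate 2, 110 without vehicle replicate 1 and 127 without vehicle replicate 2 of that line, and lowered ones 78, 82, 60 and 70. Leaving out any PR-A K388R array moved these counts less, but it also ended some of the calls and added others. Without variance moderation only 1 probe set, that of FKBP5, was called.

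SGK1, a kinase that promotes epithelial sodium transport and a textbook corticosteroid target, read 9.68 and 9.12 with R5020 in PR-A K388R and 8.68 and 8.54 with R5020 in WT PR-A. With vehicle it read 4.61 and 4.34 in PR-A K388R and 3.86 and 4.75 in WT PR-A. Every R5020 array was thus far above every vehicle array, in both lines. The pooled change was 4.61 ± 0.23 (SE), or 24.5-fold (adjusted p = 6.56e-05), made up of 4.92 in PR-A K388R and 4.31 in WT PR-A. HSD11B2, which inactivates cortisol, read 9.44 and 8.36 with R5020 in PR-A K388R and 8.91 and 9.07 with R5020 in WT PR-A, against vehicle readings of 5.33 and 5.29 in PR-A K388R and 4.35 and 5.10 in WT PR-A. Its groups did not overlap, and it rose 15.2-fold (3.93 ± 0.27, adjusted p = 0.000304).

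FKBP5, an HSP90 co-chaperone that lowers the hormone affinity of steroid receptors, had the smallest adjusted p of the named genes (1.87e-07). It read 9.66 and 9.62 with R5020 in PR-A K388R and 9.87 and 9.85 with R5020 in WT PR-A, and with vehicle 6.04 and 6.12 in PR-A K388R and 6.27 and 6.37 in WT PR-A. Arrays of a group differed by at most 0.10. The rise was 11.7-fold (3.55 ± 0.08) and nearly the same in each line, 3.56 in PR-A K388R and 3.54 in WT PR-A.

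**Figure D1:**
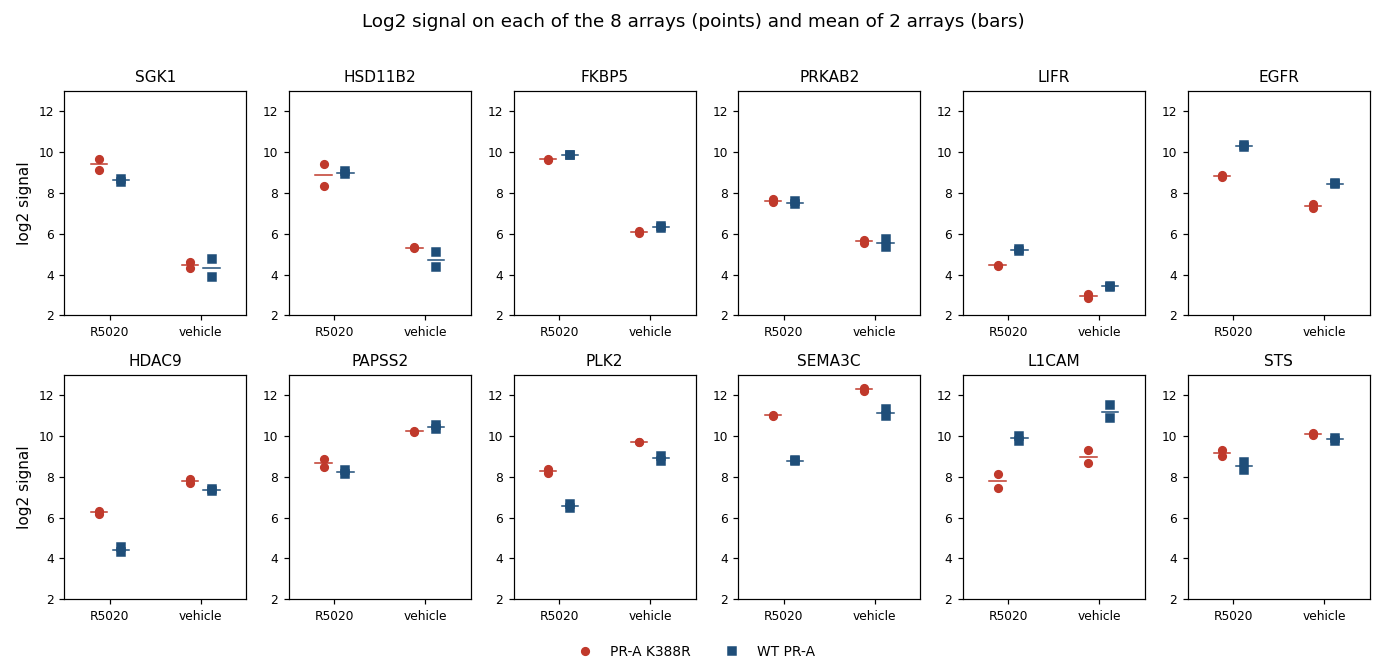
Log2 signal (vertical axis) of 6 genes that rose and 6 that fell with R5020, 1 panel per gene, with R5020 arrays left of vehicle arrays, circles for PR-A K388R, squares for WT PR-A and short bars for the mean of 2 arrays. FKBP5 lies at 9.62 to 9.87 with R5020 and 6.04 to 6.37 with vehicle, whereas for L1CAM and SEMA3C the R5020 arrays of one line reach the level of the vehicle arrays of the other.

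Among the other large rises, the anion exchanger SLC26A3 rose 8.56-fold (3.10 ± 0.48, adjusted p = 0.0116), the membrane carboxypeptidase CPM 7.07-fold (2.82 ± 0.38, adjusted p = 0.00651) and the actin-binding protein ABLIM3 6.67-fold (2.74 ± 0.20, adjusted p = 0.000412). Vehicle readings of SLC26A3 were 2.98 and 3.01 in PR-A K388R and 2.94 and 3.03 in WT PR-A, below the lower quartile of the arrays, and the vehicle mean of CPM was 3.22, also below it, so that both sizes of change are uncertain. THBS1, the matrix glycoprotein thrombospondin 1, rose 6.30-fold on its brightest probe set (2.66 ± 0.19), and its other probe sets changed by 2.94, 1.69 and 0.58, of which the smallest was not called (adjusted p = 0.0675). PDK4, which shuts off pyruvate dehydrogenase, rose 4.81-fold (2.26 ± 0.37, adjusted p = 0.0136), and its second probe set changed by 0.34 and was not called (adjusted p = 0.0695). The stress-response protein NDRG1 rose 4.79-fold, the protease inhibitor SERPINA3 4.46-fold, the phospholipid flippase ATP8B3 4.35-fold and the calcium-binding protein S100P 4.34-fold. S100P lost its call without WT PR-A vehicle replicate 2 (adjusted p = 0.0521), and PDK4 lost it without WT PR-A R5020 replicate 2 (0.0549) or vehicle replicate 2 (0.0572).

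HDAC9, a class II histone deacetylase gene, fell to 6.18 and 6.34 with R5020 in PR-A K388R and 4.31 and 4.54 in WT PR-A, against vehicle readings of 7.90 and 7.69 in PR-A K388R and 7.39 and 7.30 in WT PR-A. All 4 R5020 arrays were below all 4 vehicle arrays, and the fall was 4.69-fold (-2.23 ± 0.26, adjusted p = 0.00354). The gene has 2 other probe sets, which read 3.16 and 2.92 on average with R5020 and 3.12 and 3.02 with vehicle. These lie under the lower quartile of the arrays, where a fall could not be seen, so the fall rests on 1 probe set. PAPSS2, which makes the sulfate donor used to sulfate steroids and proteoglycans, read 8.46 and 8.85 with R5020 in PR-A K388R and 8.14 and 8.32 in WT PR-A. Its vehicle readings were 10.26 and 10.20 in PR-A K388R and 10.52 and 10.33 in WT PR-A. It fell 3.69-fold (-1.88 ± 0.15, adjusted p = 0.000665), and its other probe sets fell by 1.79 and 1.21.

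PLK2, a polo-like kinase induced by growth factors and stress, also fell 3.69-fold (-1.88 ± 0.18, adjusted p = 0.00186). It read 8.18 and 8.38 with R5020 in PR-A K388R and 6.47 and 6.68 in WT PR-A, against 9.72 and 9.69 with vehicle in PR-A K388R and 9.03 and 8.80 in WT PR-A. The secreted guidance cue SEMA3C fell 3.49-fold (-1.80 ± 0.21, adjusted p = 0.00354) and by 2.00 on its second probe set. Its R5020 readings of 11.05 and 10.98 in PR-A K388R overlapped the vehicle readings of 10.96 and 11.31 in WT PR-A, since the lines differed in level, while within each line the treatments were apart. Smaller falls were those of the chemokine receptor CX3CR1 (2.99-fold), the arachidonate lipoxygenase ALOX5 (2.91-fold), the transcription factor SOX11 (2.75-fold), the membrane-binding protein ANXA6 (2.71-fold), TCL1B (2.67-fold), the adhesion molecule NCAM2 (2.66-fold), SLFN5 (2.62-fold) and the sarcoplasmic reticulum protein TRDN (2.56-fold). Of these CX3CR1 was the least stable, since its call was lost on leaving out any 1 of 7 arrays, and its second probe set changed by -0.09. The second probe sets of ALOX5 (-0.39, adjusted p = 0.0802) and SLFN5 (-1.10, adjusted p = 0.0683) were not called, nor was 1 of 3 for SOX11 (-0.65, adjusted p = 0.0733). ALOX5 lost its call without WT PR-A vehicle replicate 1 (0.0525), SOX11 without WT PR-A R5020 replicate 1 or either WT PR-A vehicle array (0.0635 to 0.0813), and SLFN5 on leaving out any 1 of 4 arrays (0.0704 to 0.0898).

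The promoters of 4 of these genes are shown because they are the largest rises and falls carried by both lines that have a RefSeq promoter entry. Each runs from 250 bases before to 50 bases after 1 annotated start per gene in GRCh38.p14. Other starts of these genes were not searched, and probe sets were not matched to transcripts. The HDAC9 window lies inside that gene, whose span begins at chr7:18086825. Capitals mark a match to AGAACA, the half-site bound by the progesterone, glucocorticoid and androgen receptors, on either strand (TGTTCT where it lies on the other strand). The full palindrome was searched as ACANNNTGT. They are SGK1 (chr6:134318063-134318362, minus strand), FKBP5 (chr6:35728534-35728833, minus strand), HDAC9 (chr7:18495499-18495798, plus strand) and PLK2 (chr5:58460037-58460336, minus strand).
SGK1: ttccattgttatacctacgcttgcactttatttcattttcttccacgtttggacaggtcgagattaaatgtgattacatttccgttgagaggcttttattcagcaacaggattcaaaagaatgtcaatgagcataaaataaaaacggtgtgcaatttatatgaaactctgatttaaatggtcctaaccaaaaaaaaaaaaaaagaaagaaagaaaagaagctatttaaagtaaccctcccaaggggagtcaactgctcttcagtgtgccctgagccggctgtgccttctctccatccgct
FKBP5: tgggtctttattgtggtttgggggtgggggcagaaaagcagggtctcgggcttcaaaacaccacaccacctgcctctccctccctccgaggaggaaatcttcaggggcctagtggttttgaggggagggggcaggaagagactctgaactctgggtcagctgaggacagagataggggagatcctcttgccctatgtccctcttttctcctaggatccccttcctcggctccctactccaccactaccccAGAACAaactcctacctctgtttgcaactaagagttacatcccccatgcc
HDAC9: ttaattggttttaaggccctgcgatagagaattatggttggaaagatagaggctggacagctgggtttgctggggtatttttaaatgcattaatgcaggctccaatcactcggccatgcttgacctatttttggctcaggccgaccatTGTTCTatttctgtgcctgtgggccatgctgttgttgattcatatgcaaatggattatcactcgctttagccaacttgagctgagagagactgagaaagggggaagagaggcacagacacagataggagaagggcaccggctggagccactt
PLK2: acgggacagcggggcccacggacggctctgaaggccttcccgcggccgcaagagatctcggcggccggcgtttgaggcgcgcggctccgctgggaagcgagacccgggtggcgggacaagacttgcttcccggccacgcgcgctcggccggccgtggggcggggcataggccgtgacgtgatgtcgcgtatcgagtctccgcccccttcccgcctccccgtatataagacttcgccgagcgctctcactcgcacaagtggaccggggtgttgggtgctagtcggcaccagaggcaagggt
In FKBP5 the match begins at the annotated start itself and in HDAC9 it begins at -102, while these letters are not in the windows of SGK1 and PLK2. AGAACA occurred in 10 of 84 promoters (11.9%) of genes raised in both lines and 5 of 45 (11.1%) of genes lowered in both lines, against 11.2% of the 6908 measured genes with a promoter entry and 14.9% of all 27305 RefSeq promoters. ACANNNTGT occurred in 3 of 84 (3.57%) and 2 of 45 (4.44%), against 4.08% and 5.45%. The shares of the changed genes were thus near those of all measured genes in this window, which leaves out distal elements.

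All 204 raised and all 126 lowered probe sets had the same sign in both lines, and in each the R5020 arrays lay apart from the vehicle arrays within both lines. Among all probe sets, R5020 arrays lay above vehicle arrays within both lines for 9.70% and below them for 8.37%. The fit counts a difference between the lines as error, so that a call favours genes that moved alike. Over all 4 arrays against 4, without regard to line, 157 raised (77.0%) and 80 lowered (63.5%) probe sets did not overlap. For the rest the R5020 readings of one line reached the vehicle readings of the other. The share over all probe sets was not worked out for this count. These probe sets were called for a difference by treatment, so the counts are descriptions only.

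A change of at least 1.5-fold in each line was seen for 133 raised probe sets (112 genes), which is 1.06% of all probe sets, and for 78 lowered ones (60 genes), which is 0.622%. Among called probe sets, 5 raised and 4 lowered ones reached 1.5-fold in PR-A K388R alone, against 66 raised and 44 lowered ones in WT PR-A alone. These shared counts moved less with single arrays than the pooled counts did, to 101 to 148 raised and 54 to 88 lowered. Whichever array was left out, 100 of the 204 raised probe sets (49.0%) and 50 of the 126 lowered ones (39.7%) kept the pooled call, so over 50% of the calls were lost in at least 1 omission. Of the 133 raised in both lines 98 (73.7%, 82 genes) kept it, and of the 78 lowered in both 46 (59.0%, 37 genes).

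Among called probe sets the response was mostly smaller in PR-A K388R. Raised probe sets had a median change of 0.74 in PR-A K388R and 1.19 in WT PR-A, and lowered ones -0.66 in PR-A K388R and -1.04 in WT PR-A. The change in PR-A K388R was a median of 58.7% of that in WT PR-A for raised probe sets (quartiles 43.9% and 85.5%) and 59.9% for lowered ones (46.8% and 76.7%). The larger change was in WT PR-A for 170 raised (83.3%) and 109 lowered (86.5%) probe sets. For these counts the share over all probe sets was not worked out, so they are descriptions only. The difference itself, tested over 10 arrays, was called at an adjusted p under 0.05 for 30 raised and 8 lowered probe sets, with 1.82% of all probe sets called. In 29 of the 30 and in all 8 the response was larger in WT PR-A. This count of 38 fell to between 2 and 17 when any 1 of the 8 arrays was left out.

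**Figure D2:**
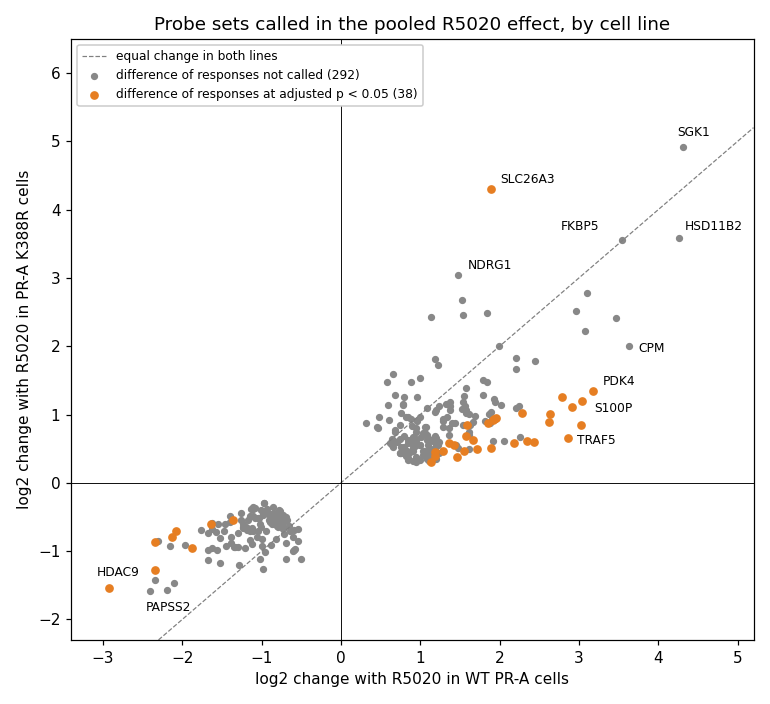
Log2 change with R5020 in PR-A K388R cells (vertical axis) against that in WT PR-A cells (horizontal axis) for the 330 probe sets called in the pooled effect, each change from 2 R5020 and 2 vehicle arrays. The dashed line marks equal change, and the 38 orange points had responses that differed between the lines, 1 of them (SLC26A3) larger in PR-A K388R.

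Set against each line taken alone with the same thresholds over 10 arrays, the pooled fit was the stricter for genes that responded in a single line. In PR-A K388R alone 152 probe sets rose and 56 fell, and in WT PR-A alone 535 rose and 405 fell. Of the 204 raised in the pooled fit, 95 were also called in both lines alone, 4 in PR-A K388R only, 103 in WT PR-A only and 2 in neither. Of the 126 lowered, 40 were called in both, 4 in PR-A K388R only, 77 in WT PR-A only and 5 in neither. Probe sets called in PR-A K388R alone and not in the pooled fit numbered 53 raised and 12 lowered, and those called in WT PR-A alone and not in the pooled fit numbered 337 raised and 288 lowered. These fits share their arrays, so the counts are not independent of each other.

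Some genes had the smallest differences between the lines relative to their pooled change. They are named as a description since they were chosen for that. PRKAB2, a regulatory subunit of the energy-sensing kinase AMPK, read 7.71 and 7.54 with R5020 in PR-A K388R and 7.59 and 7.47 in WT PR-A, against 5.70 and 5.55 with vehicle in PR-A K388R and 5.34 and 5.74 in WT PR-A. Its change was 2.00 in PR-A K388R and 1.99 in WT PR-A, a difference of 0.01 ± 0.21 (SE). The actin-binding protein NEBL changed by 1.10 in PR-A K388R and 1.09 in WT PR-A, the taurine transporter SLC6A6 by 1.12 and 1.24, and the tubulin TUBB2A by 1.15 and 1.32. Among falls, the adhesion molecule L1CAM changed by -1.21 in PR-A K388R and -1.29 in WT PR-A, the collagen chain COL1A1 by -1.11 and -1.02, BCAS1 by -0.90 and -1.12, and the steroid sulfatase STS by -0.94 and -1.30. STS was the least even of these falls, with a difference of 0.36 ± 0.22 (SE). These 8 probe sets kept their pooled call whichever array was left out. COL1A1 has 3 other probe sets, none called, with changes of -0.69, -0.08 and 0.05. For L1CAM the lines themselves differed more than the treatments, with 7.46 and 8.12 (R5020) and 8.69 and 9.30 (vehicle) in PR-A K388R and 9.78 and 10.01 (R5020) and 11.51 and 10.87 (vehicle) in WT PR-A.

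Genes at the other end had pooled calls with unequal responses. SLC26A3 changed by 4.30 in PR-A K388R and 1.89 in WT PR-A (difference 2.41 ± 0.49, adjusted p = 0.0457). In TRAF5, a TNF receptor adaptor, the change was 0.66 in PR-A K388R and 2.86 in WT PR-A (difference -2.20 ± 0.16, adjusted p = 0.00174), on the 1 of its 2 probe sets that was called. The transcription factor CEBPD (0.60 in PR-A K388R, 2.43 in WT PR-A), S100P (1.20, 3.04) and PDK4 (1.34, 3.18) likewise had smaller responses in PR-A K388R, with adjusted p of the difference of 0.00709, 0.00834 and 0.0485. Falls were smaller in PR-A K388R for HDAC9 (-1.54 in PR-A K388R, -2.92 in WT PR-A, adjusted p of the difference 0.0104), SLFN5 (-0.71, -2.08, 0.0238) and SOX11 (-0.79, -2.13, 0.035). The pooled calls of TRAF5 and CEBPD were each lost on leaving out any 1 of 5 arrays (adjusted p up to 0.15 and 0.152). NDRG1 changed by 3.04 in PR-A K388R and 1.48 in WT PR-A, and its difference missed the threshold (adjusted p = 0.0515). Rises were smaller in PR-A K388R for JAK2 (0.63 against 1.66 in WT PR-A, adjusted p of the difference 0.0209), ACSL1 (0.95, 1.95, 0.0225) and SLC7A5 (0.46, 1.55, 0.0481). So were the falls of SEMA3C (-1.27, -2.34, 0.0407), TCL1B (-0.95, -1.88, 0.0257) and FGFR2 (-0.61, -1.64, 0.0266).

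**Figure D3:**
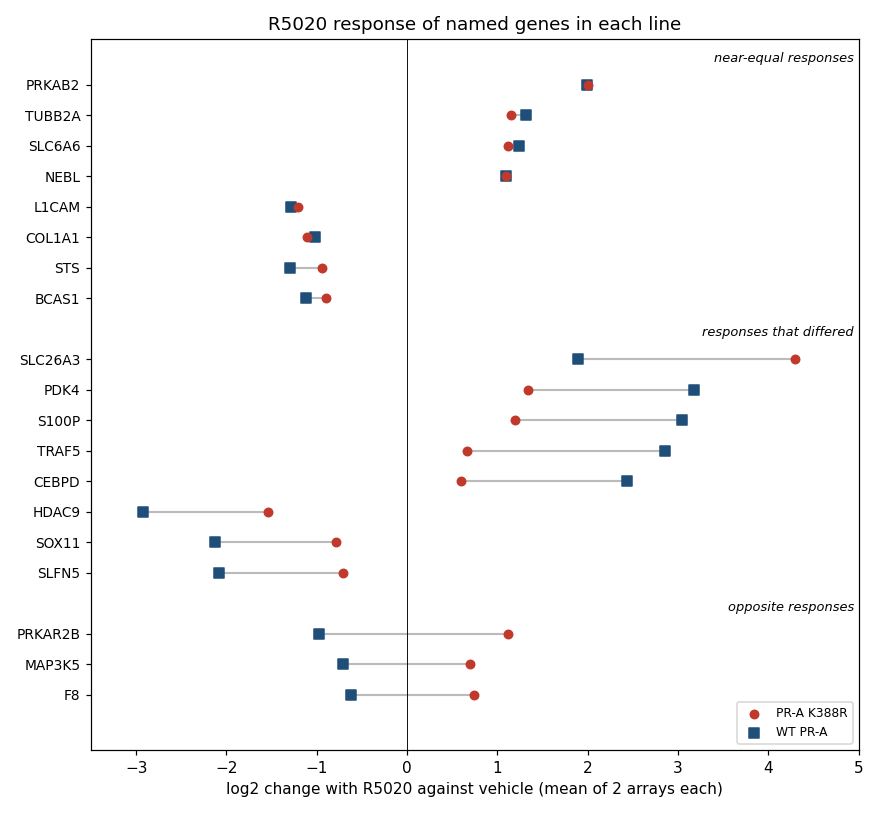
Log2 change with R5020 against vehicle (horizontal axis) in PR-A K388R (circles) and WT PR-A (squares) for 8 genes chosen for the most even responses, 8 with responses that differed and 3 with opposite responses. PRKAB2 has 2.00 and 1.99, SLC26A3 4.30 and 1.89, and PRKAR2B 1.12 and -0.98.

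Pooling cancels opposite changes. With changes of at least 1.5-fold up in one line and down in the other and a difference at an adjusted p under 0.05, 3 probe sets were found. Leaving out 1 array gave between 2 (without WT PR-A vehicle replicate 1) and 7 (without PR-A K388R R5020 replicate 2), with 5 without WT PR-A R5020 replicate 2, 5 without PR-A K388R vehicle replicate 1 and 6 without vehicle replicate 2 of that line. PRKAR2B, a regulatory subunit of protein kinase A, changed by 1.12 in PR-A K388R and -0.98 in WT PR-A, which gave a pooled change of 0.07 (adjusted p = 0.961). MAP3K5, a stress-activated kinase, changed by 0.70 and -0.71, and the coagulation factor F8 by 0.74 and -0.62. Differences were 2.10, 1.42 and 1.36.

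Gene lists were read on 1 probe set per gene, of which 153 of 8904 (1.72%) were raised and 97 (1.09%) lowered, with a median change of -0.005. With so few members per list, 0 calls in a list are near these shares. The lists were chosen with earlier results of these data known, so their counts are descriptions. Among textbook progestin and glucocorticoid targets 10 of 19 measured members rose, 0 fell, and all 19 changes were above 0 (median 1.17, being 0.70 in PR-A K388R and 1.79 in WT PR-A). Besides SGK1, HSD11B2, FKBP5, PDK4, S100P and CEBPD these were KLF9, F3, LIFR and STAT5A. F3, tissue factor, rose 3.82-fold (1.94 ± 0.19, adjusted p = 0.00194) and LIFR, the receptor of leukemia inhibitory factor, 3.13-fold (1.64 ± 0.10, adjusted p = 0.000217), from a vehicle mean of 3.19 that lies below the lower quartile of every array, so its size is uncertain. KLF9, a Krüppel-like repressor, rose 4.05-fold on its brighter probe set (2.02 ± 0.14, adjusted p = 0.000304) and 7.67-fold on the other.

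Steroid handling moved in both directions. Of 16 measured steroid-converting and sulfation enzymes 2 rose and 2 fell, with a median of 0.09. HSD11B2 rose, and SRD5A1, a steroid 5-alpha-reductase, rose 2.00-fold (1.00 ± 0.20, adjusted p = 0.0294). PAPSS2 fell, and STS, which removes sulfate from steroids, read 9.32 and 9.04 with R5020 in PR-A K388R and 8.35 and 8.73 in WT PR-A, against 10.16 and 10.07 with vehicle in PR-A K388R and 9.78 and 9.89 in WT PR-A, a 2.17-fold fall (-1.12 ± 0.13, adjusted p = 0.00349). SRD5A1 lost its call on leaving out any 1 of 5 arrays (adjusted p = 0.0674 to 0.103), while STS, PAPSS2 and HSD11B2 kept theirs. Among 9 steroid receptor chaperones FKBP5 alone was called (median 0.24). The 15 nuclear receptors and the 10 members of the SUMO pathway had 0 calls (medians -0.04 and 0.04).

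Metabolic genes rose in small numbers. Of 26 hypoxia and glycolysis genes 5 rose and 0 fell (median 0.23). Besides PDK4 and NDRG1 they were PFKFB3, which drives glycolysis through fructose bisphosphate (2.99-fold), DDIT4, an mTORC1 inhibitor that glucocorticoids also induce (2.96-fold), and P4HA2, a collagen prolyl hydroxylase subunit (2.75-fold). PFKFB3 lost its call without WT PR-A vehicle replicate 1 (adjusted p = 0.0566). Fatty acid synthesis genes gave 1 call of 14, the acyl-CoA synthetase ACSL1 (2.73-fold, 1.45 ± 0.19, adjusted p = 0.00626), and cholesterol genes 0 of 11. Of 14 nutrient carriers 4 rose (median 0.38): SLC6A6 at 2.27-fold, the heavy and light chains of an amino acid exchanger, SLC3A2 at 1.69-fold and SLC7A5 at 2.01-fold, and the fatty acid carrier SLC27A2 at 1.58-fold. Both chains and ASNS, asparagine synthetase (1.79-fold), were also the 3 rises among 14 unfolded protein response and ATF4 genes (median 0.35). The calls of SLC3A2, SLC7A5, ASNS and SLC27A2 were each lost on leaving out any 1 of 5 or 6 arrays, with adjusted p up to 0.107, 0.139, 0.101 and 0.165. Sodium and ion transport gave 2 rises of 17, SLC26A3 and the sodium channel subunit SCNN1B (2.03-fold, call lost on leaving out any 1 of 6 arrays, adjusted p up to 0.126).

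In growth factor signalling, 3 of 22 receptors and ligands rose and 1 fell (median -0.10). The rises were the receptor EGFR and its ligands EGF and TGFA. EGFR read 8.76 and 8.89 with R5020 in PR-A K388R and 10.35 and 10.25 in WT PR-A, against 7.46 and 7.25 with vehicle in PR-A K388R and 8.47 and 8.45 in WT PR-A. The treatments were apart within each line, and the rise was 3.15-fold (1.65 ± 0.11, adjusted p = 0.000252). EGF rose 2.57-fold (1.36 ± 0.19, adjusted p = 0.00839) and TGFA 1.63-fold (0.71 ± 0.11, adjusted p = 0.0107), and all 3 kept their calls whichever array was left out. EGFR was called on 2 of its 4 probe sets and TGFA on 1 of its 2, with no probe set of either in the other direction. FGFR2, a fibroblast growth factor receptor, fell 2.18-fold and was called on 1 of its 2 probe sets. It lost its call without WT PR-A R5020 replicate 2 or either WT PR-A vehicle array. Among 15 Ras and MAPK modulators PLK2 was the only call.

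Cytokine signalling gave 3 rises of 22 (median 0.16), LIFR, STAT5A and JAK2. STAT5A, the mammary transcription factor that acts downstream of prolactin, read 7.95 and 8.03 with R5020 in PR-A K388R and 7.96 and 8.05 in WT PR-A, against 7.12 and 6.94 with vehicle in PR-A K388R and 6.63 and 6.70 in WT PR-A. All R5020 readings were thus within 0.10 of each other, and the rise was 2.21-fold (1.15 ± 0.11, adjusted p = 0.00149). JAK2, the kinase upstream of it, also rose 2.21-fold and was called on 1 of its 3 probe sets. That call was lost on leaving out any 1 of 4 arrays. Interferon-stimulated genes had a median of -0.64, being -0.14 in PR-A K388R and -1.15 in WT PR-A, but 1 of 18 was called, the antiviral GTPase MX2 (1.59-fold lower, call lost on leaving out any 1 of 6 arrays, adjusted p up to 0.0987).

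**Figure D4:**
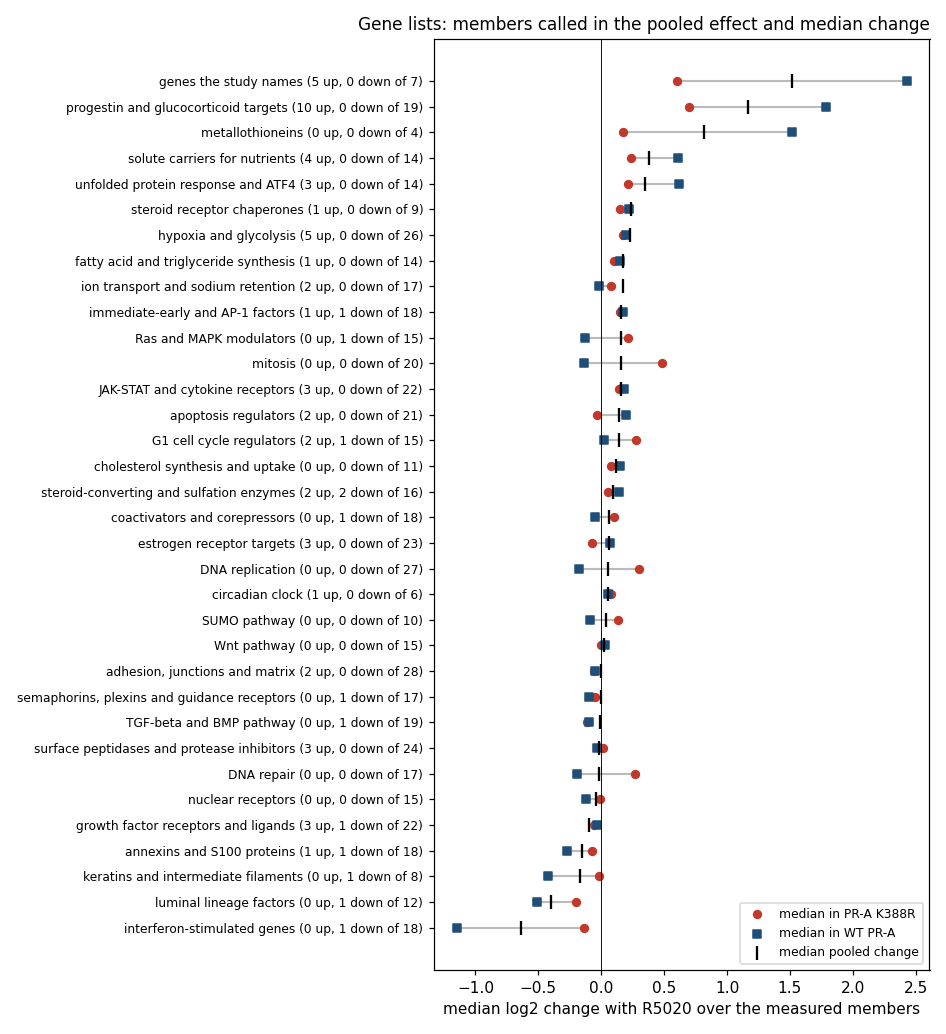
Median log2 change with R5020 (horizontal axis) over the measured members of 34 gene lists, in PR-A K388R (circles), in WT PR-A (squares) and pooled (black ticks), with the numbers raised and lowered in the pooled effect beside each name. Progestin and glucocorticoid targets have 1.17, interferon-stimulated genes -0.64 and luminal lineage factors -0.40, while the medians of most other lists lie near 0.

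Of 27 DNA replication, 20 mitosis and 17 DNA repair genes 0 passed the test. With 1.72% of all genes raised and 1.09% lowered, 0 calls are near the share over all genes. The fit also counts a difference between the lines as error. The medians of these lists had opposite signs in the lines. These were 0.30 in PR-A K388R and -0.18 in WT PR-A for replication, 0.48 and -0.14 for mitosis, and 0.27 and -0.19 for repair. Among 15 G1 regulators MYC rose 1.66-fold and the antiproliferative gene BTG1 1.55-fold, and the atypical cyclin CCNG2 fell 1.56-fold (other probe sets -0.63 and 0.05, not called), all with calls that were lost on leaving out any 1 of 5 or 6 arrays (adjusted p up to 0.0667, 0.0953 and 0.0863). Of 21 apoptosis regulators the death receptor FAS rose 2.16-fold (1.11 ± 0.13, adjusted p = 0.00404) and PMAIP1 2.79-fold. PMAIP1 rose less in PR-A K388R (0.61) than in WT PR-A (2.35, adjusted p of the difference 0.0227). It was called on 1 of its 2 probe sets, and lost its call on leaving out any 1 of 6 arrays. Of 18 immediate-early genes MYC rose and KLF10 fell 1.61-fold (-0.69 ± 0.11, adjusted p = 0.011).

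Luminal lineage factors had 11 of 12 changes at or below 0 and a median of -0.40, being -0.20 in PR-A K388R and -0.51 in WT PR-A. The pioneer factor FOXA1 was the only member called. It read 8.93 and 8.68 with R5020 in PR-A K388R and 8.38 and 8.22 in WT PR-A, against 9.36 and 9.48 with vehicle in PR-A K388R and 9.67 and 9.86 in WT PR-A. The arrays did not overlap and the fall was 2.05-fold (-1.04 ± 0.18, adjusted p = 0.0163), with the call lost without either WT PR-A R5020 array or WT PR-A vehicle replicate 1 (adjusted p = 0.0549 to 0.0725). Estrogen receptor targets had a median of 0.06 and 3 rises of 23, THBS1, SERPINA3 and GREB1, a growth regulator that rose 4.07-fold (2.02 ± 0.30, adjusted p = 0.00922) and more in WT PR-A (1.26 in PR-A K388R, 2.79 in WT PR-A, adjusted p of the difference 0.0294).

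Adhesion and matrix genes gave 2 rises of 28, THBS1 and the desmosomal protein DSP (1.72-fold, call lost on leaving out any 1 of 5 arrays, adjusted p up to 0.0897). Among 8 intermediate filament genes the mesenchymal filament VIM fell 1.74-fold (called on 1 of its 2 probe sets, call lost on leaving out any 1 of 5 arrays). The inhibitor of differentiation ID2 fell 1.77-fold among 19 TGF-beta and BMP genes (call lost on leaving out any 1 of 5 arrays, adjusted p up to 0.0902), and SEMA3C was the only call among 17 semaphorins and guidance receptors. Surface peptidases and their inhibitors gave 3 rises of 24, CPM, SERPINA3 and F3, and annexins and S100 proteins 1 rise and 1 fall of 18, S100P and ANXA6. HDAC9 was the 1 call among 18 coactivators and corepressors, and the repressor NFIL3 (1.70-fold higher) the 1 call among 6 circadian clock genes, lost without WT PR-A R5020 replicate 2 (adjusted p = 0.0672) or WT PR-A vehicle replicate 1 (0.0671). The 15 Wnt pathway genes had 0 calls. The 4 measured metallothioneins also had 0, with a median of 0.82, being 0.17 in PR-A K388R and 1.52 in WT PR-A. Of other cell type markers, EGFR was the 1 call among 7 basal markers and COL1A1, on 1 of its 4 probe sets, the 1 call among 8 fibroblast markers, whose array means were 4.31 to 4.57 with R5020 and 4.41 to 4.71 with vehicle.

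Of the 15 genes the study names 7 were measured here, and 5 of these rose: SGK1, PDK4, NDRG1, CEBPD and the retinaldehyde dehydrogenase ALDH1A3 (2.60-fold, call lost on leaving out any 1 of 6 arrays, adjusted p up to 0.139). The study chose them on these samples, so the count is no independent evidence of a direction. ALDH1A3 changed by 0.58 in PR-A K388R and 2.18 in WT PR-A, and that difference passed the test (-1.60 ± 0.20, adjusted p = 0.00778). Its second probe set changed by 0.23 and was not called (adjusted p = 0.394). ANXA1, annexin 1, changed by 1.21 ± 0.46 and was not called (adjusted p = 0.213). It changed by -0.07 in PR-A K388R and 2.48 in WT PR-A, and that difference passed the test (-2.55 ± 0.28, adjusted p = 0.00518). DIO2, a deiodinase, changed by 0.01 (adjusted p = 0.983).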

How the data were processed

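The authors hybridised labelled RNA to Affymetrix U133 Plus 2 arrays and normalized it in Partek (Partek Genomics Suite, from the methods). They deposited 1 log2 signal per probe set and array, and the normalization and background methods are not given in the sources used here. The table used here has 16376 probe sets, part of the array. Of these 12547 have 1 gene symbol (12528 with a gene in the GRCh38.p14 RefSeq table; 8904 genes), while 457 have more than 1 symbol and 3372 have no entry in the table that pairs probe sets with genes. The symbols are those of the platform annotation. Of 120 called genes with over 1 probe set, 51 had over 1 called and 102 had all their probe sets in 1 direction.

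The difference between replicates 2 and 1, summed over the 5 groups, was 0 for every probe set (largest absolute sum 0.0003, against medians of 0.228 to 0.255 with the numbers of 1 group exchanged). The values therefore carry no replicate number effect any more, and the fit counts it as a block. The pooled effect was fitted in limma 3.58.1 (R 4.3.3) on 8 arrays with cell line, treatment and replicate number as additive terms (4 residual and 4.54 prior degrees of freedom), so that a difference between the lines counts as error. The difference of the responses, PR-A K388R minus WT PR-A, was fitted on all 10 arrays with 1 mean per group and the block (4 and 5.27). The responses of single lines came from that same fit. P-values were two-sided and adjusted over the 12547 probe sets, with calls at an adjusted p under 0.05 and, for responses, at least 1.5-fold. Errors after ± are standard errors of these fits.

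On simulated arrays (12547 probe sets, 50 changed in each set) the pooled fit recovered 40% of 1.5-fold, 90% of 2-fold and 98% of 3-fold changes present in both lines, with 2 false calls. Those changes were made equal in both lines. The shares therefore do not cover genes whose responses differ between the lines, which the fit counts as error. A 2-fold change in 1 line alone lies under the fold threshold of the pooled call by construction.

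The members and the gene lists were chosen with earlier results of these data known. Genes were named by a rule, on the probe set with the highest mean: the 12 largest called changes each way, the 6 most even each way among those called at 2-fold or more with a level above the median of all values in each line, the 5 most uneven called each way, up to 4 called members of a list, opposite responses and genes the study names. Other genes named, among them KLF9 and those in the other observations, were chosen after their values were seen. Motifs were searched on both strands of RefSeq promoters. Alternatives were no replicate block, 1 mean per group over 10 arrays, a line by treatment term over 8 arrays, quantile normalization, median centring of the arrays, dropping the dimmest 40% of probe sets, an intensity trend, unmoderated analysis of variance contrasts, a fold of at least 2, all probe sets, unadjusted p-values, and leaving out each array, where the remaining array of a group is assumed to vary like the others. The unmoderated contrasts kept the terms of the main fits, and the analysis of variance of the paper was not rerun. Figures were drawn with Python 3.11.15.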

Additional observations from a re-analysis of the deposited data

Results flagged for a closer look

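These results stand out because the R5020 responses of the lines differed by the test of the difference itself (limma, adjusted p under 0.05, 10 arrays). Differences are log2 changes in PR-A K388R minus those in WT PR-A. Among raised genes they were 2.41 for SLC26A3, -1.84 for PDK4, -1.84 for S100P, -2.20 for TRAF5 and -1.83 for CEBPD. Among lowered genes, where a positive value is a smaller fall in PR-A K388R, they were 1.39 for HDAC9, 1.34 for SOX11 and 1.37 for SLFN5. Opposite responses gave 2.10 for PRKAR2B, 1.42 for MAP3K5 and 1.36 for F8. In all, 38 of the 330 probe sets called in the pooled effect had responses that differed, and 3 probe sets had opposite responses. Groups hold 2 arrays each, so single arrays could not be tested as outliers.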

How the results depend on the processing

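Counts are given as raised and lowered probe sets, 204 and 126 as reported. Without the replicate block they were 256 and 158, and responses that differed numbered 121 against 38 with it. Modelling the difference between the lines raised the counts, to 334 and 207 with 1 mean per group over 10 arrays and 333 and 200 with a line by treatment term over 8 arrays, with 143 and 115 responses that differed, since that difference no longer counts as error. Unadjusted p-values gave 336 and 213, and 343 that differed. A fold of at least 2 left 97 and 40, of which 52 and 10 reached it in both lines, and 0 opposite responses. Unmoderated analysis of variance contrasts left 1 (FKBP5, also the 1 raised in both lines) and 0 lowered, 0 that differed and 0 opposite, against 2150 probe sets at an unadjusted p under 0.05 in limma. An intensity trend gave 88 that differed. Leaving out each array gave 110 to 219 raised, 60 to 152 lowered, 2 to 17 that differed and 2 to 7 opposite. Quantile normalization, centring, leaving out dim probe sets and all probe sets kept every pooled count within 1.5 times. None of the 66 called genes named by the rule, nor of the 11 called genes named after their values were seen, changed direction under any of these alternatives. This was largely fixed in advance and is no test of a direction. A change of model or threshold leaves the pooled estimate as it is. In every called probe set, R5020 and vehicle arrays also lay apart within both lines. Whether same-numbered arrays pair could not be read from the values, since the replicate number had been removed from them. With 2 arrays per group, arrays of 1 stable line each, no control probe sets and levels near the lower quartile for 6 raised probe sets, small changes and exact sizes of low genes are limited.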

Other observations

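Some further changes were chosen after their values were seen and carry no independent test. KMO, kynurenine monooxygenase, fell 2.12-fold (-1.09 ± 0.11, adjusted p = 0.00194), and 2.00-fold on a second probe set. Kynureninase, KYNU, read 8.61 and 7.93 with R5020 in PR-A K388R and 6.67 and 6.74 in WT PR-A, against 9.35 and 9.23 with vehicle in PR-A K388R and 7.57 and 7.77 in WT PR-A. The treatments were apart within each line. KYNU fell 1.99-fold (-0.99 ± 0.14, adjusted p = 0.0072), and the aminotransferase KYAT1 rose 1.73-fold (0.79 ± 0.12, adjusted p = 0.00925). TXNIP, an inhibitor of thioredoxin and of glucose uptake, fell on all 3 of its probe sets, by 1.30, 1.27 and 1.19. INPP4B, a phosphoinositide phosphatase, fell 2.50-fold (-1.32 ± 0.16, adjusted p = 0.00392).

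PNMT, which makes adrenaline, read 10.48 and 9.97 with R5020 in PR-A K388R and 7.71 and 7.93 in WT PR-A, against 7.78 and 7.32 with vehicle in PR-A K388R and 6.06 and 6.51 in WT PR-A, a 4.30-fold rise (2.10 ± 0.25, adjusted p = 0.00411). DDC, the decarboxylase that makes dopamine, rose 4.0-fold (2.00 ± 0.20, adjusted p = 0.00194). The rises of PNMT (2.68 in PR-A K388R, 1.53 in WT PR-A) and DDC (2.46, 1.54) did not pass the test of the difference between lines (adjusted p = 0.139 and 0.112). PDHA1, the pyruvate dehydrogenase subunit whose complex PDK4 inactivates, rose on 3 probe sets by 0.99, 0.80 and 0.75, with calls that were lost on leaving out any 1 of 4, 3 and 6 arrays (adjusted p = 0.0521 to 0.0898). STAT5B rose 1.74-fold beside STAT5A (0.80 ± 0.09, adjusted p = 0.00329), and the autophagy kinase ULK2 rose on 3 probe sets by 1.26, 1.14 and 0.98.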
